A study of Mus musculus with 18 samples.

Results

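The amino acid transporter families described here are the Slc1, Slc3, Slc6, Slc7, Slc36, Slc38 and Slc43 genes, taken as every array probe whose platform gene symbol begins with one of those 7 family names followed by a number. The rule found 120 of the 45281 probes, which name 58 of the 19057 genes named on the array. Of these 58 genes, 38 had a probe above background on at least 3 of the 18 arrays and were tested. The other 20 genes exceeded the limit on at most 2 arrays, and 8 of them on 0 arrays. Slc7a6os matched by its spelling only: it is named for its place on the strand opposite Slc7a6 and is not a transporter, which leaves 57 transporter genes.

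The arrays measured RNA of cells sorted for green fluorescence from the dissociated heart ventricles of Wt1GFPKI mouse embryos, in which GFP is placed at the Wt1 gene. There were 3 arrays at each of 6 stages, embryonic day E11.5, E12.5, E13.5, E14.5, E15.5 and E16.5, all of the same genotype and with no drug treatment named. The submitters call the cells cardiomyocytes, and no GFP-negative cells, other genotype or other tissue entered the comparisons. The labels do not say whether a sample pooled embryos or whether replicates came from separate litters, so the p-values reflect the spread among these arrays and no other source of variation.

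Amino acid transporters move their substrates across the plasma membrane or out of lysosomes. The Slc7 light chains reach the cell surface only as partners of a heavy chain, Slc3a2 or Slc3a1, and exchange one amino acid for another. Slc1, Slc6 and Slc38 carriers use the sodium gradient to concentrate glutamate, taurine, creatine, glycine or glutamine inside cells. Heart muscle holds much taurine and creatine, which it takes up through Slc6a6 and Slc6a8. Many of these genes are known targets of ATF4, a transcription factor induced when amino acids run short, which binds with C/EBP partners at a composite site.

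The letters TGATGNAA, the core of that C/EBP-ATF site, were searched on both strands of RefSeq promoters (GRCm38.p6, 250 bases before to 50 bases after each start). They stood in 1304 of 32851 promoters (3.97%) and in 5 of the 62 promoters of 41 transporter genes (8.06%), those of Slc1a4, Slc7a11, Slc7a7 and Slc6a21. The letters TGACNNNGC, the core of the antioxidant response element, stood in 12.4% of all promoters and in 10 of the 62 (16.1%). Overlapping windows of the same gene were counted separately, for the families and for all promoters. A TGATGNAA site of Slc7a7 and a TGACNNNGC site of Slc7a6 were each counted in more than 1 window. The printed sequences hold no TGACNNNGC, and a match is a description of the letters only. The promoters of 3 genes are shown 5′ to 3′ along the gene's strand, with TGATGNAA or its reverse complement in capitals: Slc1a4, whose level changed at E13.5, Slc7a11, a textbook ATF4 target with a pair of matches, and Slc38a5, which rose most and holds no match in this window.
Slc1a4: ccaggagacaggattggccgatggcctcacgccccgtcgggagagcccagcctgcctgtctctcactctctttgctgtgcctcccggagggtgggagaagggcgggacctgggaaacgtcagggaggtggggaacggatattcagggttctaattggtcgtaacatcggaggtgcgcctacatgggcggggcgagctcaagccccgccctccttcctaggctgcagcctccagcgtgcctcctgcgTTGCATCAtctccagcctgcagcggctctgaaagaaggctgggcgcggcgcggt
Slc7a11: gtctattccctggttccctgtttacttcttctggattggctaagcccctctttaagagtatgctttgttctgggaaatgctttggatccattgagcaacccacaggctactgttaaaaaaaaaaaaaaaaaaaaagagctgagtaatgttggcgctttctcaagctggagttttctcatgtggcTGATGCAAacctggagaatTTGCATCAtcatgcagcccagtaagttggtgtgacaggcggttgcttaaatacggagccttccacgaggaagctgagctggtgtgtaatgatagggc
Slc38a5: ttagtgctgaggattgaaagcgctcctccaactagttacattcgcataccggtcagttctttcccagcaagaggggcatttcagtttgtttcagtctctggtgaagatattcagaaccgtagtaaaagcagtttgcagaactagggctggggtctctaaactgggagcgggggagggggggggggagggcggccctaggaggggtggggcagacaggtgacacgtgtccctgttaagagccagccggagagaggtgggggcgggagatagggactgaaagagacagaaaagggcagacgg
These windows are chr11:20332664-20332963 on the minus strand for Slc1a4, chr3:50443564-50443863 on the minus strand for Slc7a11 and chrX:8271131-8271430 on the plus strand for Slc38a5. The Slc1a4 match lies on the opposite strand to the gene and begins 4 bases before the start. The Slc7a11 matches begin 66 and 47 bases before the start, on the same and on the opposite strand.

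Between E11.5 and E16.5, 4 of the 38 genes rose and 6 fell, while 28 gave no call. The genes that rose carry glutamine (Slc38a5), glutamate and cysteine (Slc1a1), creatine (Slc6a8) and neutral amino acids (Slc6a17). Those that fell carry taurine and GABA (Slc6a13), taurine (Slc6a6), glutamate (Slc1a3), large neutral amino acids (Slc43a1) and cationic with neutral amino acids (Slc7a6), with Slc7a6os beside them. The test was limma's moderated test in 1 model of the 6 stages, with Benjamini-Hochberg adjustment over all 25369 tested probes and a threshold of 0.05, and a gene was read from its probe with the highest mean. The 10 genes are 26.3% of the 38, against 24.1% of all 12871 tested genes read the same way, so the families changed about as often as genes at large. By direction, 11.4% of all genes were higher and 12.8% lower. Counted by probe, 13 of 59 passed, 5 higher and 8 lower, against 19.4% of all probes (8.94% higher and 10.4% lower). The E11.5 and E16.5 arrays did not overlap for 15 of the 38 genes, and for 32.9% of all probes. The latter share was not taken by gene, so it is an unlike base for the 15 genes. The median log2 change was -0.02 over the 38 genes and -0.01 over all genes. The 28 genes that did not pass had log2 changes between -0.35 and 0.32, with SE of 0.12 to 0.18.

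**Figure D1:**
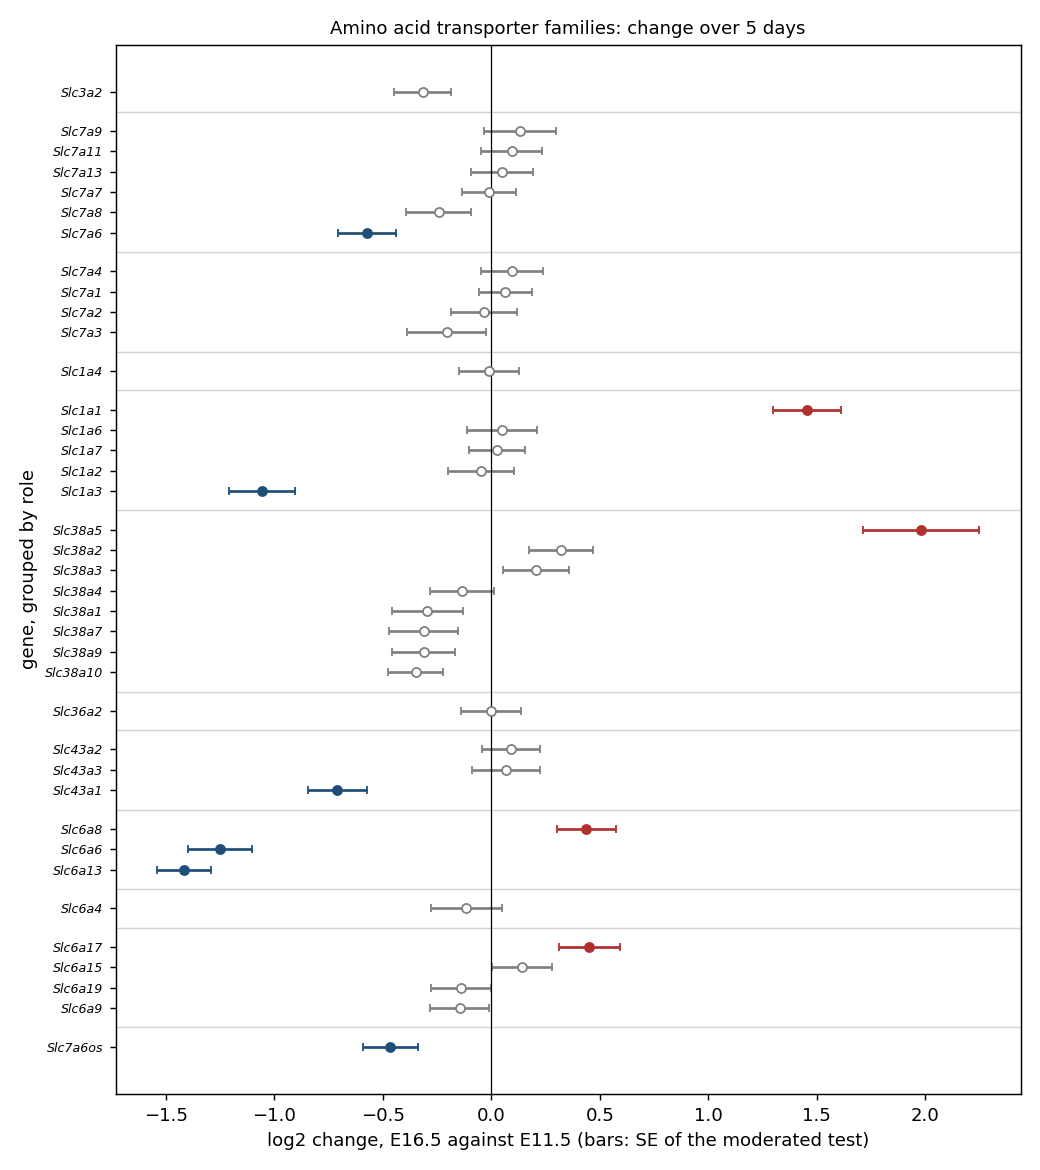
Log2 change of E16.5 against E11.5 (horizontal axis) for the 38 tested genes, grouped by role, with bars of 1 SE of the moderated test. Filled points passed the test (red higher, blue lower) and open points did not; Slc38a5 lies farthest to the right at 1.98 and Slc6a13 farthest to the left at -1.42, and the point of Slc1a1 is its measured value although its E11.5 arrays were not well above background.

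Levels are given as log2 intensity after normexp background correction, on which the background limit lies at 5.02. Intensities of different probes are not compared with each other. Without background correction the log2 changes of dim probes were smaller, at -0.72 for Slc6a13 and 0.54 for Slc1a1, and both were still called. In such bulk samples, fewer cells of a type and less RNA per cell cannot be told apart. The mean log2 intensity of 15 cardiomyocyte markers was 11.68 to 11.90 over the 18 arrays. This mean rests in part on bright probes that had little room to move: Myl2, Myl3, Actc1 and Tnnc1 read at least 13.51 on every array, where the highest value of any probe was 14.08. Of the 15 markers, 4 rose and 1 fell between E11.5 and E16.5, among them Tnni3 (log2 change 1.05) and Pln (0.74) upward and the atrial light chain Myl7 downward (-2.48). Markers of other cells were also above background, at levels that differed between stages. The mean of 11 fibroblast markers was 6.40 to 6.82 at E11.5 and 8.60 to 9.08 at E16.5, and 10 of the 11 rose. The mean of 12 endothelial markers was 6.36 to 6.58 at E11.5 and 7.04 to 7.71 at E16.5, with 8 higher and 1 lower. Platelet markers, 8 genes of which 7 fell, had means of 6.47 to 6.99 at E11.5 and 5.03 to 5.19 at E12.5. Erythroid markers, 10 genes, had means of 5.17 to 5.94 at E11.5 and 6.73 to 7.03 at E12.5. Between E11.5 and E16.5, 5 of them rose and 4 fell. The means of 8 epicardial markers were 5.82 to 6.0 at E11.5 and 5.15 to 5.27 at E16.5, with 6 lower and 1 higher, and Wt1 itself was not analysed here. Of 9 listed macrophage and leukocyte markers, 4 were tested, and Ptprc, Cd68, Adgre1, Tyrobp and Fcgr3 were not. The 4 tested had means of 5.96 to 6.35 at E11.5 and 5.09 to 5.24 at E16.5. Of these, 3 fell (Lyz2, Laptm5 and Coro1a), while Csf1r, near the limit, did not pass. The part of these markers in the changes below was not tested.

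**Figure D2:**
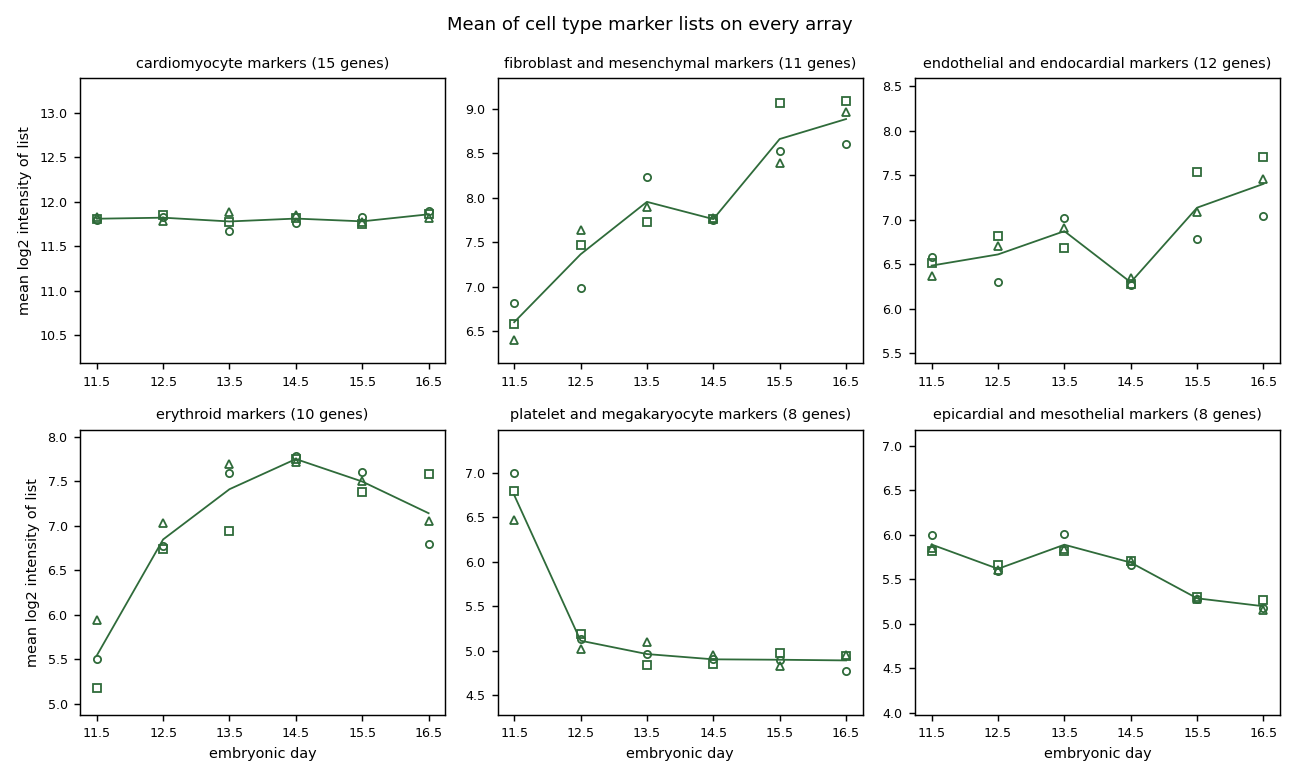
Mean log2 intensity of 6 marker lists (vertical axes, each spanning the same number of log2 units) against embryonic day, with 1 symbol per array (circle, square and triangle for replicates 1, 2 and 3) and a line through the stage means. The cardiomyocyte mean, which includes bright probes with little room to move and members that moved in opposite directions, lay between 11.68 and 11.90, the platelet mean was lower and the erythroid mean higher on every array after E11.5, and fibroblast and endothelial markers were highest at the last stages.

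Of 5 taurine, creatine, betaine and GABA carriers of the Slc6 family, 3 were tested and all passed: Slc6a13 and Slc6a6 fell and Slc6a8 rose. Slc6a11 and Slc6a12 were above the limit on 2 and 0 arrays and were not tested. Slc6a13 (GAT2, a carrier of GABA that also takes taurine; chr6:121300288-121337721) read 7.01, 6.94 and 6.91 at E11.5, 6.39, 6.20 and 6.40 at E12.5, 5.91, 5.69 and 5.77 at E13.5, 5.92, 5.68 and 5.80 at E14.5, 5.80, 5.40 and 5.80 at E15.5 and 5.58, 5.52 and 5.51 at E16.5. The E11.5 arrays stood above all E12.5 arrays, and these above all later ones, after which neighbouring stages overlapped. It fell by 1.42 on the log2 scale (SE 0.12, 2.67-fold lower at E16.5, limma adjusted p = 3.92e-09). The fall was tested in the first step too (log2 change -0.62, SE 0.12, adjusted p = 0.00555) and in the second (-0.54, adjusted p = 0.0223). The second step was not called without E13.5 replicate 2 (adjusted p = 0.128), E13.5 replicate 3 (0.0905) or E12.5 replicate 3 (0.0947). It was -0.42 without E13.5 replicates 2 and 3 together, which leaves only replicate 1 at that stage.

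Slc6a6 (TauT, the main taurine carrier; chr6:91684048-91759063) read 9.55, 9.93 and 9.75 at E11.5, 9.46, 9.43 and 9.21 at E12.5, 8.83, 9.05 and 9.13 at E13.5, 8.69, 8.73 and 8.70 at E14.5, 8.51, 8.63 and 8.40 at E15.5 and 8.52, 8.81 and 8.14 at E16.5. Every E11.5 array lay above every later array, each stage down to E15.5 lay below the one before it without overlap, and E16.5 overlapped both E14.5 and E15.5. It fell by 1.25 on the log2 scale over the 5 days (SE 0.15, 2.38-fold lower, adjusted p = 5.42e-07), and no single daily step passed the test. Cdo1, cysteine dioxygenase, which starts taurine synthesis from cysteine, read 7.27, 7.26 and 7.10 at E11.5, 6.46, 6.55 and 6.19 at E12.5, 5.76, 5.90 and 5.75 at E13.5 and 5.10, 5.40 and 5.92 at E16.5. It was 3.33-fold lower at E16.5 (SE 0.16 on the log2 scale, adjusted p = 8.84e-09), and its first 3 stages did not overlap. Csad, a later enzyme of taurine synthesis, read 6.54, 6.64 and 6.59 at E11.5 and 6.39, 6.60 and 6.46 at E16.5, with overlap. The means of the platelet markers were 4.78 to 4.96 at E16.5, lower than at E11.5. Those of the epicardial and the tested macrophage markers, given above, were also lower at E16.5 than at E11.5.

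Slc6a8 (the creatine carrier; chrX:73673133-73682502) read 9.17, 9.10 and 9.17 at E11.5, 9.0, 9.31 and 9.28 at E12.5, 9.30, 9.32 and 9.53 at E13.5, 9.61, 9.56 and 9.58 at E14.5, 9.77, 9.79 and 9.41 at E15.5 and 9.83, 9.60 and 9.33 at E16.5. The E11.5 arrays lay below those of the last 4 stages, and the last 3 stages overlapped. The rise of 0.44 (SE 0.14, 1.35-fold, adjusted p = 0.0242) was no longer called without any 1 of the E11.5 arrays or without E16.5 replicate 1 or 2, with adjusted p between 0.0551 and 0.145. In the list of 11 tested taurine, creatine and polyamine enzymes, 3 rose, 4 fell and 4 did not pass. Ckm, the muscle creatine kinase, was 82.0-fold higher at E16.5 (SE 0.16 on the log2 scale, adjusted p = 2.63e-19) and Ckmt2, the mitochondrial creatine kinase of muscle, 6.97-fold higher (adjusted p = 7.48e-13). Gamt, which makes creatine, was 1.79-fold lower (adjusted p = 0.000118), and its arrays were 8.38, 8.78 and 8.50 at E11.5 against 7.71, 8.04 and 7.38 at E16.5, without overlap.

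**Figure D3:**
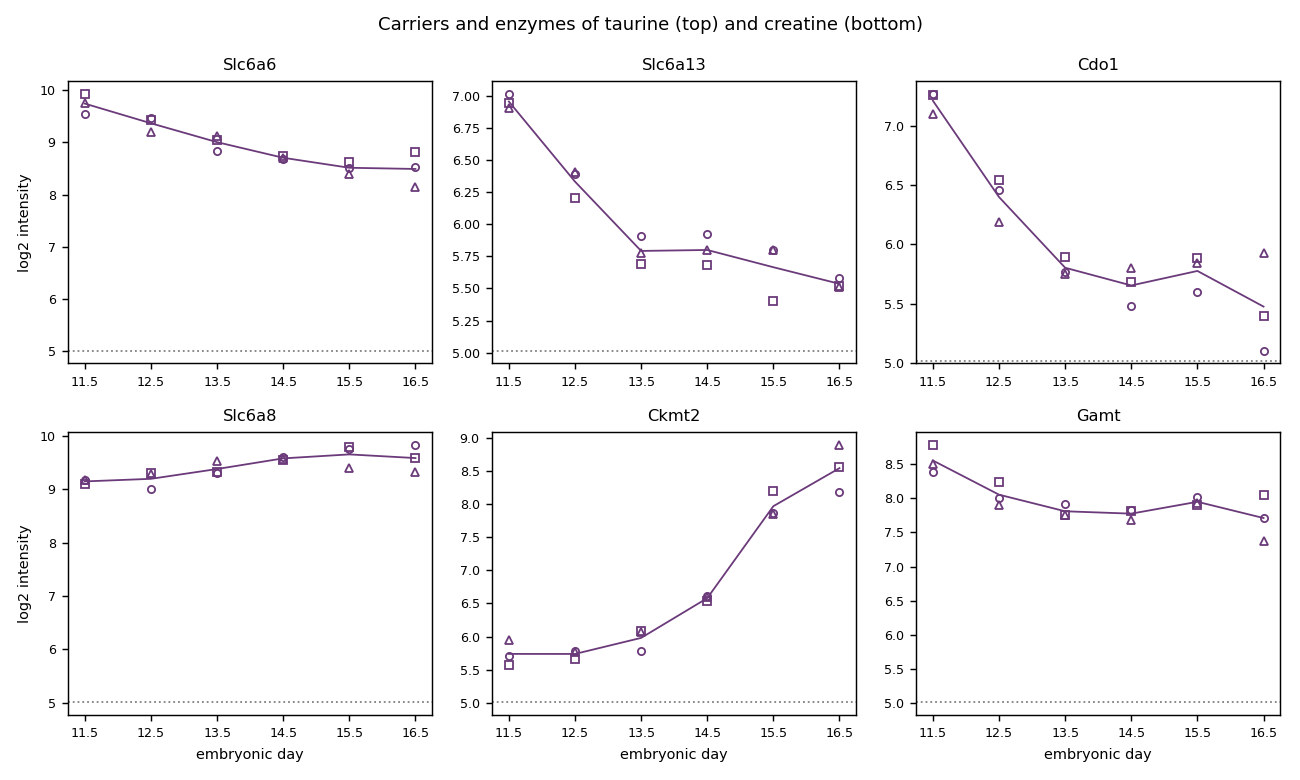
Log2 intensity (vertical axes, scaled per gene) against embryonic day for 3 genes of taurine transport and synthesis (top) and 3 of creatine (bottom), with 1 symbol per array, a line through the stage means and a dotted line at the background limit of 5.02. Slc6a6, Slc6a13 and Cdo1 were highest at E11.5, Slc6a8 rose by 0.44 and Ckmt2 was higher from E14.5 on, while Gamt was highest at E11.5.

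Among 8 tested Slc38 genes, which carry glutamine and small neutral amino acids, Slc38a5 rose and 7 did not pass between the end stages. Slc38a5 (SNAT5, a system N carrier of glutamine, asparagine, histidine and serine; chrX:8271381-8280179) read 7.61, 6.78 and 7.26 at E11.5, 8.33, 8.94 and 9.38 at E12.5, 9.91, 8.40 and 9.05 at E13.5, 8.79, 8.78 and 8.69 at E14.5, 9.14, 9.36 and 8.96 at E15.5 and 9.17, 9.43 and 8.99 at E16.5. All E11.5 arrays lay below all later arrays, and no later stage was apart from every other. The change was 1.98 (SE 0.27, 3.95-fold, limma adjusted p = 4.72e-06), of which 1.67 came in the first step (SE 0.27, adjusted p = 0.000604). This was 1 of 2 genes of the families called in that step, with Slc6a13, where 1.59% of all probes were called. The mean of the erythroid markers was also higher at E12.5, at 6.73 to 7.03 against 5.17 to 5.94 at E11.5, but its members differed. Hba-a1 went from 6.24, 5.77 and 6.62 to 9.04, 9.20 and 9.49, while Klf1 went from 5.29, 5.17 and 5.43 to 4.99, 4.57 and 4.88. These E12.5 values of Klf1 lie under the background limit. Hbb-bs, Hbb-bt, Hbb-y and Hba-x were also higher on every E12.5 array than on any E11.5 array. Alas2, Hbb-bh1, Slc4a1 and Epor overlapped between these stages. The mean of the fibroblast markers was 6.98 to 7.64 at E12.5 against 6.40 to 6.82 at E11.5, and that of the platelet markers was lower, as given above. Their part in the result was not tested.

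The system A carriers Slc38a1 and Slc38a2, which take up small neutral amino acids including glutamine, were read differently by different probes. The probe of Slc38a2 with the highest mean read 10.22, 9.89 and 10.20 at E11.5 and 10.58, 10.30 and 10.39 at E16.5, a change of 0.32 (SE 0.15, adjusted p = 0.147). A second probe read 9.20, 8.72 and 9.01 at E11.5 and 9.85, 9.52 and 9.83 at E16.5, without overlap, a rise of 0.76 (SE 0.15, adjusted p = 0.000471). The remaining probe, near background, gave -0.12 (adjusted p = 0.616). So the call for Slc38a2 depends on the probe read. For Slc38a1 the probe with the highest mean gave -0.29 (adjusted p = 0.246), a second fell by 0.50 (adjusted p = 0.0225), and the others gave 0.11 and 0.08. Slc38a9, the lysosomal arginine sensor that acts on mTORC1, gave -0.31 (SE 0.14, adjusted p = 0.146; with array weights -0.42, adjusted p = 0.0145), with array values from 5.58 to 6.27 over all stages.

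The glutamate carriers of the Slc1 family moved in opposite directions: of 5 tested, Slc1a1 rose, Slc1a3 fell and 3 did not pass. Slc1a1 (EAAC1, which also takes cysteine; chr19:28835135-28913960) read 4.88, 4.63 and 4.55 at E11.5, 4.98, 4.54 and 4.48 at E12.5, 4.96, 4.93 and 5.19 at E13.5, 5.13, 5.02 and 4.90 at E14.5, 5.52, 6.07 and 5.51 at E15.5 and 6.21, 5.98 and 6.25 at E16.5. It was not well above background on any array of E11.5 or E12.5, was above the limit on 1 array at E13.5 and 1 at E14.5, and was above it on all arrays from E15.5 on. E16.5 was at least 2.19-fold higher than E11.5, a bound set by the lowest signal above background (SE 0.16 on the log2 scale, adjusted p = 1.3e-07). The step from E14.5 to E15.5 passed the test (0.68, SE 0.16, adjusted p = 0.0123), but not without E15.5 replicate 2 (0.50, adjusted p = 0.153) or E14.5 replicate 2 (0.0510) or 3 (0.0832). A second Slc1a1 probe, above the limit on 5 arrays, did not pass between the end stages (0.12, adjusted p = 0.567). The mean of both probes changed by 0.79 between the end stages, and its step from E14.5 to E15.5 was not called (0.32, adjusted p = 0.146).

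In the same step the mean of fibroblast markers went from 7.75 to 7.77 at E14.5 to 8.38 to 9.07 at E15.5, and that of endothelial markers from 6.27 to 6.35 to 6.79 to 7.53. The part of these cells in the result was not tested.

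Slc1a3 (GLAST, a glutamate and aspartate carrier known from astrocytes; chr15:8634124-8710807) read 8.16, 8.31 and 7.89 at E11.5, 7.39, 7.50 and 7.71 at E12.5, 7.42, 6.71 and 7.06 at E13.5, 7.19, 6.96 and 7.05 at E14.5, 6.82, 7.01 and 7.06 at E15.5 and 6.93, 7.05 and 7.21 at E16.5. Its E11.5 arrays lay above all others, and the stages from E13.5 on overlapped. It fell by 1.06 (SE 0.15, 2.08-fold lower, adjusted p = 1.35e-05), with no daily step called. Means of the platelet markers and of the 4 tested macrophage markers were also highest at E11.5, at 6.47 to 6.99 and 5.96 to 6.35. Their part in the fall was not tested.

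**Figure D4:**
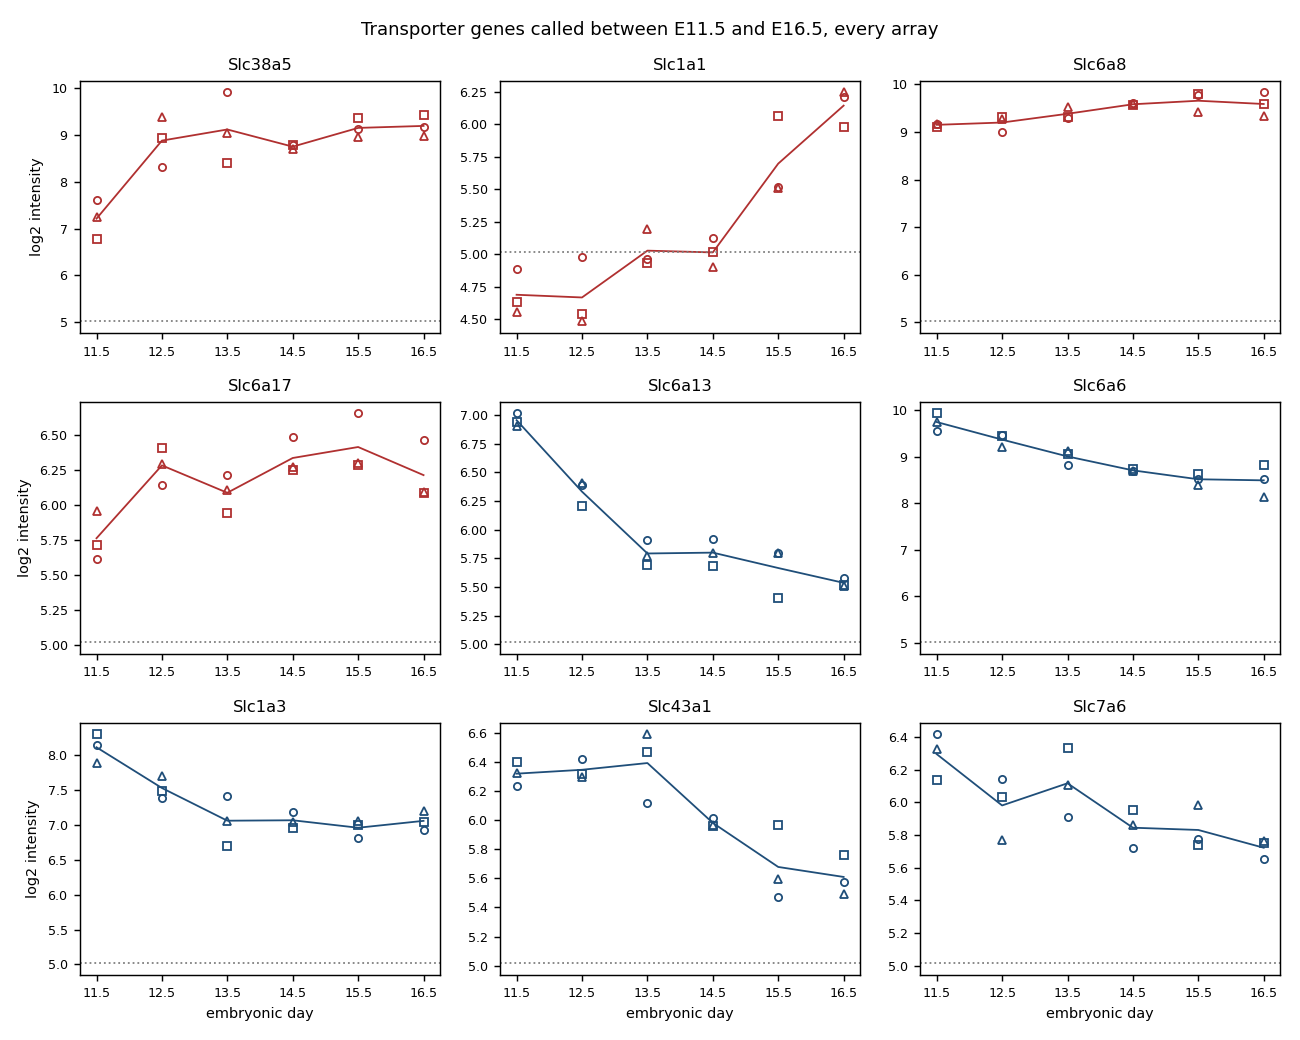
Log2 intensity (vertical axes, scaled per gene) against embryonic day for the 9 transporter genes called between E11.5 and E16.5, rises in red and falls in blue, with 1 symbol per array (circle, square and triangle for replicates 1, 2 and 3), a line through the stage means and a dotted line at the background limit of 5.02. Slc38a5 rose between E11.5 and E12.5, Slc1a1 passed the limit on all arrays only from E15.5, and Slc6a13, Slc6a6 and Slc1a3 were highest at E11.5.

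Among the chains of the heteromeric transporters, only the light chain Slc7a6 passed between the end stages. The heavy chain Slc3a2 (4F2hc, CD98) exceeded the limit on 3 of 18 arrays, 2 at E11.5 and 1 at E12.5, and gave -0.32 (adjusted p = 0.104). Of 6 tested light chains, 1 fell and 5 did not pass. Slc7a6 (y+LAT2, which exchanges cationic for neutral amino acids; chr8:106168219-106198714) read 6.42, 6.14 and 6.33 at E11.5, 6.14, 6.03 and 5.77 at E12.5, 5.91, 6.33 and 6.11 at E13.5, 5.72, 5.95 and 5.86 at E14.5, 5.77, 5.74 and 5.98 at E15.5 and 5.65, 5.75 and 5.76 at E16.5. The end stages did not overlap, while E12.5 and E13.5 overlapped E11.5. The fall was 0.57 (log2 change -0.57, SE 0.13, 1.49-fold lower, adjusted p = 0.00256). A second probe near background gave 0.04 (adjusted p = 0.871), and the mean of both probes was not called (-0.26, adjusted p = 0.0715).

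The neighbouring Slc7a6os (chr8:106200438-106210933), which lies on the other strand, read 6.43, 6.07 and 6.17 at E11.5 and 5.83, 5.70 and 5.75 at E16.5. Its fall of 0.46 (log2 change -0.46, SE 0.13, 1.38-fold lower, adjusted p = 0.00888) was not called without E11.5 replicate 1 (adjusted p = 0.0785). The F test over the stages did not call it (adjusted p = 0.0973). A second Slc7a6os probe read 5.63, 5.68 and 5.91 at E11.5 and 5.52, 5.38 and 5.47 at E16.5, and did not pass the test. Slc7a8 (LAT2) gave -0.24 (adjusted p = 0.312) and Slc7a7 (y+LAT1) -0.01 (adjusted p = 0.974). A dimmer Slc7a7 probe read 4.64, 4.78 and 4.76 at E11.5 and 5.16, 4.91 and 5.20 at E16.5, without overlap. Its E11.5 arrays and E16.5 replicate 2 were under the background limit, and this probe did not pass the test. The mean of the Slc7a7 probes was not called (adjusted p = 0.266). Slc7a11 (xCT, the cystine-glutamate exchanger), above the limit on 9 arrays, gave 0.10 (adjusted p = 0.729).

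Slc7a1 (CAT1), the widely used carrier of arginine and lysine, was above the limit on 4 arrays and gave 0.06 (adjusted p = 0.802); none of the 4 tested cationic carriers passed by limma, and 0 of them had an unadjusted p under 0.05. The 5 probes of Slc1a5 (ASCT2), a glutamine carrier, were above the limit on at most 1 array and were not well above background. Slc7a5, the partner of Slc3a2 for leucine uptake, was not analysed here, nor were Slc3a1, Slc38a6, Slc36a4 and Slc6a16.

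Of 3 tested Slc43 genes, Slc43a1 fell and 2 did not pass. Slc43a1 (LAT3, a sodium-independent carrier of leucine and other large neutral amino acids; chr2:84838855-84863586) read 6.24, 6.40 and 6.32 at E11.5, 6.42, 6.32 and 6.30 at E12.5, 6.12, 6.47 and 6.59 at E13.5, 6.02, 5.96 and 5.97 at E14.5, 5.47, 5.97 and 5.59 at E15.5 and 5.57, 5.76 and 5.50 at E16.5. All arrays of the first 3 stages lay above all arrays of the last 3. The fall was 0.71 (log2 change -0.71, SE 0.14, adjusted p = 0.000438), and a second probe fell by 0.56 (adjusted p = 0.00421). The only tested Slc36 gene, Slc36a2, which carries small amino acids with protons, did not pass.

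Of 4 tested glycine, proline and neutral amino acid carriers of Slc6, Slc6a17 rose and 3 did not pass. Slc6a17 (NTT4, known from synaptic vesicles; chr3:107467548-107518018) read 5.61, 5.72 and 5.96 at E11.5, 6.15, 6.41 and 6.30 at E12.5, 6.21, 5.94 and 6.11 at E13.5, 6.49, 6.25 and 6.27 at E14.5, 6.66, 6.29 and 6.30 at E15.5 and 6.47, 6.08 and 6.09 at E16.5. E11.5 overlapped E13.5 but no other stage. The rise of 0.45 (SE 0.14, 1.37-fold, adjusted p = 0.0237) was not called for the mean of its 2 tested probes (0.17, adjusted p = 0.374), of which the dimmer gave -0.12, or without E11.5 replicate 1 (adjusted p = 0.119) or 2 (0.0761) or E16.5 replicate 1 (0.144). Slc6a4, the serotonin carrier, was the only monoamine carrier tested and did not pass.

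Across all 6 stages, limma's F test called 12 of the 38 genes (31.6%, against 28.9% of all tested genes) and 14 of 59 probes (23.2% of all probes). Of the 12 genes, 3 were not called between the end stages: Slc1a4, Slc38a7 and Slc38a1. All 3 had their highest or lowest stage mean at E13.5. Slc1a4 (ASCT1, a carrier of alanine, serine, cysteine and threonine; chr11:20302180-20332713; its promoter is printed above) read 6.15, 5.79 and 6.01 at E11.5, 5.79, 5.97 and 6.16 at E12.5, 6.40, 6.56 and 6.84 at E13.5, 5.81, 5.89 and 6.07 at E14.5, 5.97, 6.25 and 6.02 at E15.5 and 5.94, 6.07 and 5.90 at E16.5. Its 3 E13.5 arrays were the 3 highest of the 18. The gene rose into E13.5 (0.63, SE 0.14, adjusted p = 0.0178) and fell out of it (-0.68, adjusted p = 0.0104), and the F test gave an adjusted p of 0.00394. In these steps 2.1% and 3.15% of all probes were called.

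E13.5 replicates 2 and 3 stood apart from the other arrays, at -32.5 and -34.3 on the second principal component against -8.45 for replicate 1. Without both, only replicate 1 is left at E13.5, so whether a call is kept then says little. The Slc1a4 changes were 0.42 into E13.5 and -0.47 out of it in that fit. Without replicate 3 alone the adjusted p-values were 0.127 for the rise, 0.102 for the fall and 0.0680 for the F test, and without replicate 2 the rise had 0.0612. The rise was also not called without E12.5 replicate 1 (0.0576) or 2 (0.0639), nor the fall without E14.5 replicate 1 (0.0547) or 2 (0.0550).

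Slc38a7 (SNAT7, which releases glutamine from lysosomes; chr8:95835920-95853577) read 5.68, 5.85 and 6.24 at E13.5, against 4.97 to 5.73 at all other stages. Replicates 2 and 3 were the highest of the 18 arrays. Slc38a1 was low there instead, at 6.93, 6.36 and 6.26 against 6.45 to 7.33 elsewhere, and the same replicates were the lowest of the 18. The F test gave adjusted p = 0.0180 for Slc38a7 and 0.0317 for Slc38a1. Without background correction neither was called (0.050002 for Slc38a7 and 0.0607 for Slc38a1). For Slc38a7 the adjusted p was 0.105 without E13.5 replicate 3 alone, and for Slc38a1 it was 0.108 and 0.114 without E13.5 replicate 2 or 3 alone. The Slc38a1 call was also lost without E11.5 replicate 1 or 2, E12.5 replicate 1 or 3, or E14.5 replicate 1 or 2, with adjusted p from 0.0501 to 0.0576, and for the mean of its probes (0.595).

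**Figure D5:**
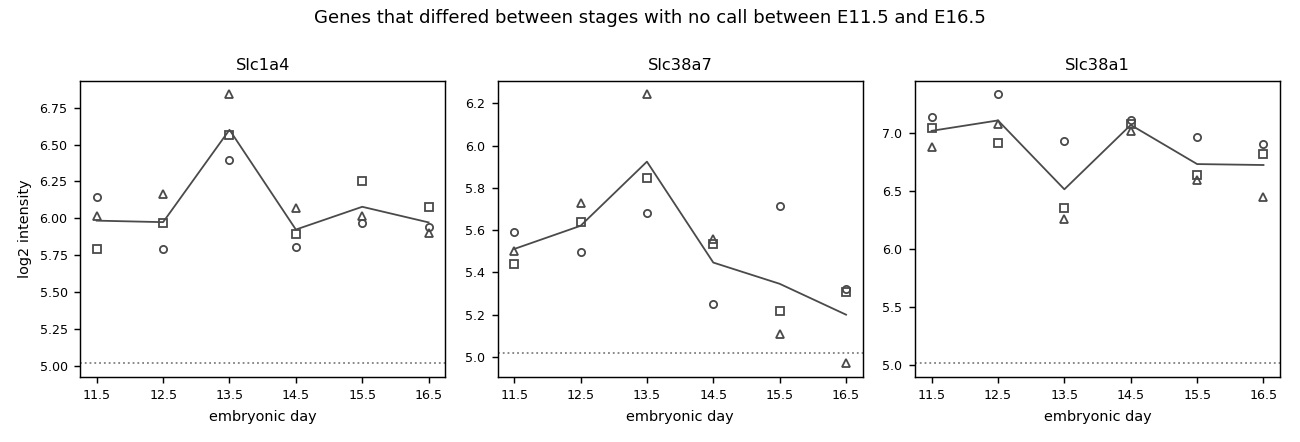
Log2 intensity (vertical axes, scaled per gene) against embryonic day for the 3 genes called by the F test but not between E11.5 and E16.5, with 1 symbol per array (circle, square and triangle for replicates 1, 2 and 3), a line through the stage means and a dotted line at the background limit of 5.02. The E13.5 arrays of Slc1a4, at 6.40 to 6.84, lie above the rest, while Slc38a7 and Slc38a1 are set apart at E13.5 by replicates 2 and 3 only.

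By daily step, 2 genes of the families were called from E11.5 to E12.5, 2 from E12.5 to E13.5, 1 from E13.5 to E14.5, 1 from E14.5 to E15.5 and 0 from E15.5 to E16.5. Counted over the 59 tested probes of the families, the calls were as many. The shares of all probes called in these steps were 1.59%, 2.1%, 3.15%, 3.15% and 0.00394%. By unadjusted p under 0.05 in limma, the counts were 6, 9, 5, 4 and 1 of the 38 genes. The share of all genes under this threshold was not computed, so these counts cannot be set beside the shares above. With the replicate number as a block, the last step again had 0 calls, and the lowest adjusted p was 0.994.

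Genes that respond to amino acid supply were read from a list of 17 tested ATF4 targets and amino acid response genes, of which 6 rose, 1 fell and 10 did not pass, with a median log2 change of 0.31 against -0.01 over all genes. Ddit4, an inhibitor of mTORC1 induced by stress, was 2.26-fold higher at E16.5 (SE 0.21 on the log2 scale, adjusted p = 0.000163), with E16.5 arrays spread from 7.19 to 8.36 and E11.5 arrays from 6.47 to 6.73. Vldlr, a lipoprotein receptor, was 1.78-fold higher (adjusted p = 2.46e-05), Ppp1r15a, which restores translation after stress, 1.71-fold higher (adjusted p = 0.00550) and Nupr1, a stress-induced chromatin protein, at least 1.59-fold higher (adjusted p = 0.000323). Asns, asparagine synthetase, was the gene that fell, with 8.94, 9.09 and 9.06 at E11.5 and 8.48, 8.20 and 8.60 at E16.5 (1.52-fold lower, SE 0.13, adjusted p = 0.00154). Atf4 itself gave 0.24 (adjusted p = 0.323).

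Of 23 tested genes of mTORC1 and its amino acid sensors, 3 rose, 2 fell and 18 did not pass, with a median of 0.00. Sesn1, a sestrin that restrains mTORC1, was 2.54-fold higher (adjusted p = 8.13e-08). Flcn and Fnip1, partners that act on the Rag GTPases at the lysosome, were 1.70-fold (adjusted p = 0.000104) and 1.53-fold higher (adjusted p = 0.00305). Rragb, a Rag GTPase, was 1.44-fold lower (adjusted p = 0.00827). Another list held 9 tested genes outside the 7 families, namely amino acid and peptide transporters and accessory proteins. Of these, Slc66a1, a lysosomal carrier of cationic amino acids, was 1.54-fold lower (adjusted p = 0.000559) and 8 did not pass. The next largest change among these was 0.34 for Slc15a4, a lysosomal histidine and peptide carrier (adjusted p = 0.135).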

How the data were processed

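Intensities on a linear scale, 1 value per probe and array, were deposited by the authors in the series matrix; GenomeStudio 2011.1 is named per the submitters' processing notes. All arrays shared nearly the same quantiles, so no further normalization was applied; the normalization method is not given in the sources used here. A second table with 36 columns whose names match no sample was not used. Probes were named from the platform annotation: 34885 had 1 gene symbol, 18 several and 10378 none. Normexp with an offset of 16, log2 and 1 model of 6 stages (limma 3.58.1, R 4.3.3) followed. Probes were tested if their intensity exceeded 105.41, the mode plus 1.64 SD estimated below it, on at least 3 arrays: 25369 probes, 56% of all. Precision is limited by having 3 arrays at a stage. Correlations within stages were 0.980 to 0.994.

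The text names all members called between E11.5 and E16.5, in a daily step or by the F test, 12 members named whatever their values, and up to 4 called genes of each pathway list, or 2 where fewer passed. Cdo1, Gamt and Ckmt2 are also plotted by array. Atf4, Gamt, Csad, Slc6a11, Slc6a12, 7 cardiomyocyte markers and the named erythroid and macrophage markers were named after their values were seen. The members and lists were chosen with earlier results of these data known. Of the 6 comparisons made, same-numbered arrays deviated together most in that of E16.5 with E15.5, with correlations of 0.19 to 0.333 over the 3 pairs. They were also positive for E15.5 with E14.5 (0.0876 to 0.167), E14.5 with E13.5 (0.066 to 0.147) and E16.5 with E11.5 (0.0262 to 0.1455). The ranges were -0.0413 to 0.0968 for E12.5 with E11.5 and -0.0102 to 0.0527 for E13.5 with E12.5. The main model did not include the replicate number. Tests were checked on simulated data. Promoter letters and gene positions are RefSeq's (GRCm38.p6), and all 58 symbols matched.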

Additional observations from a re-analysis of the deposited data

How the results depend on the processing

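Each of 26 alternatives was applied in turn (offset, background correction, filter, probe averaging, array weights, replicate block, each array left out, and E13.5 replicates 2 and 3 left out together, which was chosen after seeing the data). The last leaves only replicate 1 at E13.5, so a step or F test call lost there says little. The calls of Slc38a5, Slc1a1, Slc6a13, Slc6a6, Slc1a3 and Slc43a1 between E11.5 and E16.5 held in all 26 alternatives. The 10 calls between these stages ranged from 7 to 11 when an array was left out, and the 4 rises from 2 to 4, with 2 without E11.5 replicate 1 or 2 or E16.5 replicate 1. The 6 calls of daily steps ranged from 3 (without E13.5 replicate 3) to 12 (without E13.5 replicate 1), and were 13 with array weights. Calls over all probes moved too. From E12.5 to E13.5 they were 532 in the main test, 142 without E13.5 replicate 3, 1849 without replicate 1 and 1305 with array weights. From E13.5 to E14.5 they were 799, 109, 2449 and 2544 in the same order. The cause was not tested. With the replicate block, the calls were 10 between E11.5 and E16.5 (4 rises and 6 falls), 9 in daily steps and 12 by the F test, which ranged from 9 to 15 over all alternatives. Without background correction the changes were -0.33 for Slc43a1 and 1.57 for Slc38a5. Dim probes limit what can be said: 10 of the 38 genes were above the limit on under 10 arrays.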

Other observations

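Of 9 tested enzymes of serine, glycine and one-carbon metabolism, 4 fell, 1 rose and 4 did not pass between E11.5 and E16.5. Their median log2 change was 0.05 and their mean was -0.24, which differ in sign. Gldc, the glycine decarboxylase of the mitochondrial glycine cleavage system, read 6.72, 7.06 and 6.75 at E11.5, 5.71, 5.95 and 5.87 at E12.5, 5.43, 5.14 and 5.18 at E13.5 and 4.80, 4.87 and 4.68 at E16.5. It was not well above background on any E16.5 array, and its first 3 stages did not overlap. It was at least 3.55-fold lower at E16.5 (limma adjusted p = 8e-11). Mthfd2, a mitochondrial folate enzyme, was 1.69-fold lower (adjusted p = 5.28e-05) and Phgdh, the first enzyme of serine synthesis, 1.36-fold lower (adjusted p = 0.0385), while Psat1, the next enzyme of that route, rose by 0.72 on the log2 scale (adjusted p = 0.00321).

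Among 11 tested enzymes of glutamine, glutamate, proline and aspartate, 1 rose and 2 fell, with a median of -0.20. Oat, ornithine aminotransferase, was 1.77-fold higher (adjusted p = 0.000106) and Prodh, which starts proline breakdown, 1.35-fold lower (adjusted p = 0.00924); the other that fell was Asns. In the polyamine route, Srm, spermidine synthase, read 9.40, 9.25 and 9.22 at E11.5 and 8.34, 8.47 and 8.02 at E16.5, without overlap, and was 2.02-fold lower (adjusted p = 4.77e-06). None of 7 tested glutathione and cysteine enzymes passed by limma, and 0 had an unadjusted p under 0.05; the largest changes were 0.24 for Ggt5 (adjusted p = 0.423) and -0.24 for Gclm (adjusted p = 0.209).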
